A study of Macaca fascicularis with 2 samples.

Results

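HLA-DRA, HLA-DPA1, CD74 and CIITA, 4 genes of the MHC class II pathway among the 29324 genes in the count table, were followed in the T cells of a single-cell RNA-seq data set of blood T cells positive for both CD4 and CD8 (DP T cells) from a cynomolgus monkey (Macaca fascicularis). The genes were taken by symbol, and each symbol had 1 row. The identifiers were ENSMFAG00000032157 for HLA-DRA, ENSMFAG00000035329 for HLA-DPA1, ENSMFAG00000042836 for CD74 and ENSMFAG00000045595 for CIITA. They were chosen because their levels differed among these T cells, so what follows is a description of these cells and carries no test. T cells were taken as cells with at least 1 unique molecular identifier (UMI) of CD3E, a chain of the T cell receptor complex, and no UMI of CD79A, a chain of the B cell receptor complex. This gave 7417 T cells, 84.0% of the 8830 cells kept. They were grouped by at least 1 UMI of GZMK (492 cells), FOXP3 (329 cells), GZMB (1418 cells) or MKI67 (86 cells), and a cell could be in more than 1 group. The 5483 T cells (73.9%) with none of the 4 genes, called quadruple-negative here, were the comparison group. As a positive reference, 115 B cells were taken as cells with at least 2 CD79A UMIs and no CD3E UMI.

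MHC class II molecules are pairs of an alpha and a beta chain that carry peptides from the endosomal pathway to the cell surface, where CD4+ T cells read them. HLA-DRA and HLA-DPA1 encode the alpha chains of the DR and DP molecules, CD74 encodes the invariant chain that fills the groove until a peptide is loaded, and CIITA is the transactivator that switches the class II promoters on. B cells, dendritic cells and monocytes express the pathway constantly, and in humans and macaques, unlike in mice, activated T cells can express it too. Of the genes that set the groups, GZMK and GZMB encode granzymes of cytotoxic granules, FOXP3 encodes the transcription factor of regulatory T cells, and MKI67 marks cells in the cell cycle.

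The animal was 1 untreated monkey of 10 years of age. Its blood CD4+ cells were enriched with releasable magnetic beads and then enriched again for CD8. The same cells gave a gene library and a library of CD4 and CD8 antibody-derived tags, and the pair shared all 8953 barcodes. With 1 animal there were no replicates, so differences between animals could not be measured. All intervals are exact 95% intervals that cover counting error only. The 8830 cells that passed the study's limits held 31677119 gene UMIs, with a median of 3145 per cell. Levels are given as CPM, the UMIs of a gene per 1000000 gene UMIs of all cells of a group.

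The cells carried the markers of their labels. CD3D, also a chain of the T cell receptor complex, stood at 979 CPM in the T cells and at 40.0 CPM in the B cells. LCK, a T cell kinase, stood at 413 CPM in the T cells and 13.3 CPM in the B cells. CD79B, the partner chain of CD79A, stood at 4.28 CPM in the T cells and 1643 CPM in the B cells. MS4A1, which encodes CD20, had 2 UMIs in the 7417 T cells and 1112 in the 115 B cells. A pair of droplets among the T cells stood apart before any grouping. They carried 5 or more UMIs of the monocyte genes CD14 and LYZ together, 1 of them fell in the FOXP3-positive and 1 in the GZMB-positive group, and values are given with and without them where they matter.

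HLA-DRA was low in most T cells and higher in those with a granzyme or MKI67. Quadruple-negative T cells held 27 HLA-DRA UMIs in all, a level of 1.50 CPM (0.987 to 2.18). GZMB-positive T cells stood at 37.9 CPM (33.1 to 43.3), GZMK-positive T cells at 80.5 CPM (68.6 to 93.9) and MKI67-positive T cells at 102 CPM (77.0 to 132). The intervals of MKI67-positive and GZMK-positive cells overlapped, while the other neighbours in this order did not. On the log2 scale the ratio to quadruple-negative cells was 6.09 (5.40 to 6.81) in MKI67-positive, 5.75 (5.15 to 6.39) in GZMK-positive and 4.66 (4.08 to 5.30) in GZMB-positive cells. GZMK-positive cells held 2.12-fold (1.72 to 2.61) the HLA-DRA level of GZMB-positive cells, although 316 cells belonged to both groups. In MKI67-positive cells 55 of the 56 HLA-DRA UMIs lay in the 56 cells that also carried GZMK or GZMB, and the 30 others held 1. Of the same UMIs 25 lay in 2 of the 86 cells, which carried GZMK, GZMB and MKI67. Without that pair the MKI67-positive level was 59.3 CPM (40.3 to 84.2) and the GZMK-positive level 69.0 CPM (57.9 to 81.6), so the top of the order rested on 2 cells.

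The FOXP3-positive group did not share this pattern. Its HLA-DRA level of 23.3 CPM (15.8 to 33.1) came from 31 UMIs in 3 cells, and 29 of those UMIs lay in the single droplet that also held 42 LYZ and 13 CD14 UMIs. Without that droplet 2 HLA-DRA UMIs were left among 328 cells, a level of 1.52 CPM. The ratio to quadruple-negative cells was then 0.02 on the log2 scale, against 3.96 with the droplet. Without the corresponding droplet in the GZMB-positive group the level there was 33.7 CPM, and in all T cells it was 11.1 CPM in place of 13.2 CPM.

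B cells were far above every T cell group. HLA-DRA stood at 6349 CPM (6149 to 6554) in the B cells, with a median of 30 UMIs per cell. This was 78.9-fold (67.4 to 92.9) the level of GZMK-positive T cells and 62.3-fold (47.9 to 82.7) that of MKI67-positive T cells. Over all T cells the log2 ratio was 8.91 (8.75 to 9.07).

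The share of cells with a UMI gave the same order. At least 1 HLA-DRA UMI was found in 17.4% of MKI67-positive, 15.2% of GZMK-positive, 7.48% of GZMB-positive and 0.912% of FOXP3-positive T cells. It was found in 0.365% of quadruple-negative T cells and in 100% of the B cells. Median depth was 5229.5 UMIs in MKI67-positive, 3532.5 in GZMK-positive, 3594 in GZMB-positive, 3570 in FOXP3-positive, 2961 in quadruple-negative cells and 4593 in B cells. After each cell was thinned to 2200 UMIs and shallower cells were left out, the shares were 13.1% (6.72 to 22.2), 10.4% (7.80 to 13.5), 5.05% (3.95 to 6.34), 0.314% (0.008 to 1.74) and 0.304% (0.170 to 0.501), in the same order of T cell groups, and 99.1% in the B cells. At equal depth the granzyme-positive shares still lay far above that of quadruple-negative cells, and the FOXP3-positive share was at its level.

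**Figure D1:**
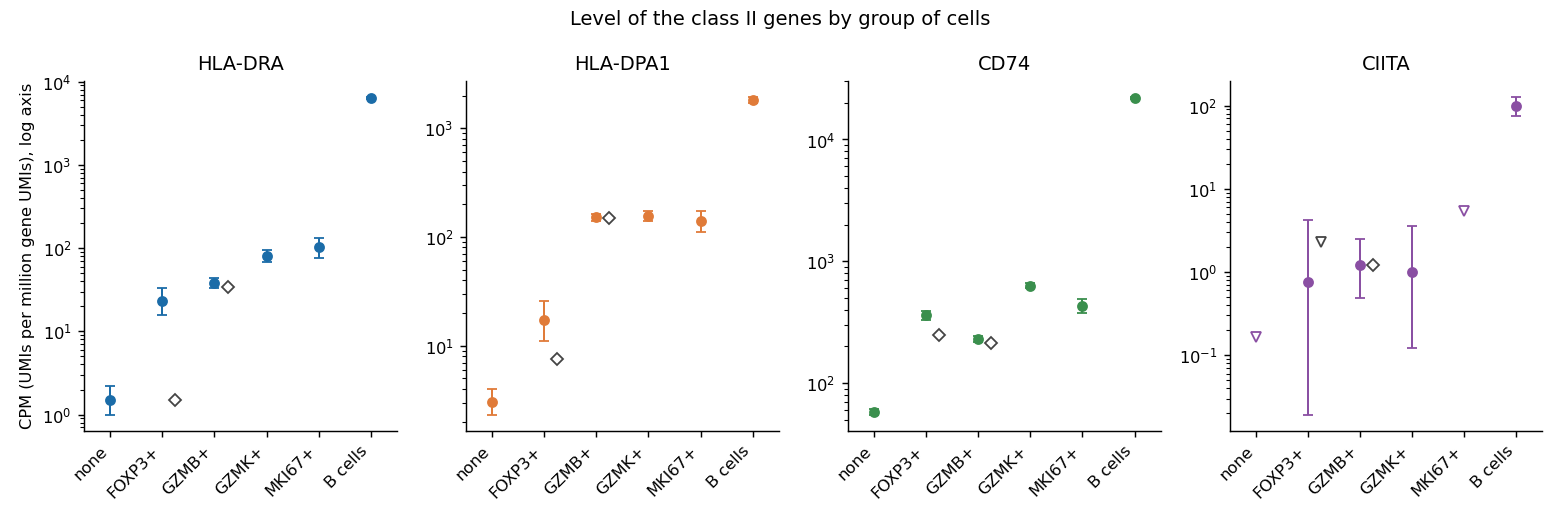
Level of HLA-DRA, HLA-DPA1, CD74 and CIITA in CPM on a log axis for quadruple-negative T cells (none), the 4 groups of T cells and B cells, with exact 95% counting intervals; open diamonds are the FOXP3-positive and GZMB-positive groups without the droplet carrying monocyte genes, and open triangles are floors of 3 counts where no UMI was found. In the FOXP3-positive group HLA-DRA stood at 23.3 CPM with and 1.52 CPM without 1 droplet, whereas CD74 stood at 250 CPM without it.

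HLA-DPA1 separated the granzyme-positive cells from the rest more evenly. Quadruple-negative T cells stood at 3.05 CPM (2.30 to 3.97). GZMK-positive cells stood at 156 CPM (139 to 174), GZMB-positive cells at 151 CPM (141 to 162) and MKI67-positive cells at 140 CPM (111 to 175). These 3 groups could not be ordered, since each interval overlapped the others. The log2 ratio of GZMK-positive to GZMB-positive cells was 0.05 (-0.15 to 0.23), but 316 cells belonged to both groups, which this interval does not allow for. Cells with only GZMK of the 4 status genes stood at 101 CPM (77.8 to 130). Those with only GZMB stood at 141 CPM (130 to 153). Relative to quadruple-negative cells the log2 ratio was 5.68 in GZMK-positive, 5.63 in GZMB-positive and 5.52 in MKI67-positive cells.

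HLA-DPA1 was found in 40.4% of GZMK-positive and 42.0% of GZMB-positive T cells, and in 0.875% of quadruple-negative cells. Thinned to equal depth, these shares were 29.5% (25.4 to 33.9), 28.0% (25.7 to 30.5) and 0.527% (0.344 to 0.771). FOXP3-positive cells stood at 17.3 CPM (11.0 to 25.9), and at 7.58 CPM without the monocyte-gene droplet. B cells stood at 1830 CPM (1723 to 1942), which was 11.7-fold (10.3 to 13.3) the level of GZMK-positive T cells. The distance between B cells and granzyme-positive T cells was thus smaller for HLA-DPA1 than for HLA-DRA.

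CD74 was the broadest of the genes. It stood at 632 CPM (597 to 667) in GZMK-positive, 429 CPM (376 to 488) in MKI67-positive, 359 CPM (327 to 392) in FOXP3-positive, 229 CPM (217 to 242) in GZMB-positive and 58.0 CPM (54.5 to 61.6) in quadruple-negative T cells. Only the MKI67-positive and FOXP3-positive intervals overlapped. Without the monocyte-gene droplets the FOXP3-positive level was 250 CPM (223.8 to 279) and the GZMB-positive level 212 CPM (200 to 223.9). These intervals just overlapped, so no order of these groups by CPM is read. Without the 2 cells with the most HLA-DRA, which held 98 of the 236 CD74 UMIs of MKI67-positive cells, the MKI67-positive level was 264 CPM (222 to 312). Relative to quadruple-negative cells the log2 ratio was 3.45 (3.33 to 3.57) in GZMK-positive, 2.89 (2.68 to 3.09) in MKI67-positive, 2.63 (2.47 to 2.79) in FOXP3-positive and 1.98 (1.87 to 2.10) in GZMB-positive cells.

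Thinned to equal depth, 44.2% of GZMK-positive, 40.6% of FOXP3-positive, 22.6% of MKI67-positive, 20.04% of GZMB-positive and 8.41% of quadruple-negative T cells held a CD74 UMI, against 100% of the B cells. The shares of FOXP3-positive and MKI67-positive cells ran against their CPM, and no order is read for that pair. B cells stood at 21964 CPM (21590 to 22342), 34.8-fold (32.8 to 36.9) the level of GZMK-positive T cells.

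CIITA was at the edge of detection in T cells. It had 8 UMIs in 7417 T cells, under the minimum of 50 UMIs used for comparisons across genes, which the other 3 genes passed. Of these, 7 fell in GZMB-positive cells and 2 in GZMK-positive cells, with cells positive for both counted in each, and 1 lay in the FOXP3-positive droplet with monocyte genes. No CIITA UMI was found among 86 MKI67-positive cells, which allows a level of up to 5.46 CPM at a floor of 3 counts, nor among 5483 quadruple-negative cells, which allows up to 0.166 CPM. GZMB-positive cells stood at 1.20 CPM (0.483 to 2.47). B cells held 59 CIITA UMIs, 98.4 CPM (74.9 to 127), and 37.4% of them had at least 1. The log2 ratio of B cells to all T cells was 8.32 (7.25 to 9.59). A difference in CIITA among the granzyme groups was not detectable at this depth.

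The proportion of the class II genes to one another differed between T cells and B cells. In GZMB-positive T cells there were 3.99 HLA-DPA1 UMIs (3.44 to 4.64) for each HLA-DRA UMI, in GZMK-positive T cells 1.94 (1.60 to 2.36) and in MKI67-positive T cells 1.38 (0.962 to 1.98). In B cells there were 0.288 (0.269 to 0.308). The 15 cells of a monocyte reference held 0.452 (0.370 to 0.551). Since the ratio is taken between the same 2 genes in each group, gene length does not enter the comparison of groups. All 3 T cell groups had proportionally more HLA-DPA1 than either reference, and GZMB-positive cells had proportionally more than GZMK-positive cells. The number of CD74 UMIs for each HLA-DRA UMI was 7.85 (6.66 to 9.30) in GZMK-positive, 6.05 (5.24 to 7.002) in GZMB-positive, 4.21 (3.14 to 5.75) in MKI67-positive T cells and 3.46 (3.34 to 3.59) in B cells. It was 38.7 (26.4 to 59.0) in quadruple-negative T cells, where CD74 was found mostly without HLA-DRA and HLA-DPA1.

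In FOXP3-positive cells CD74 was found almost always without either alpha chain. Of 169 FOXP3-positive cells with a CD74 UMI, the monocyte-gene droplet left out, 165 (97.6%, 94.1 to 99.4) held neither HLA-DRA nor HLA-DPA1. Of 637 such quadruple-negative cells, 614 (96.4%) held neither. The share was 46.9% (40.8 to 53.0) in GZMK-positive and 44.7% (39.8 to 49.8) in GZMB-positive cells, and 0 of 115 in B cells, which allows a share of up to 2.61% at a floor of 3 counts. Detection of a single gene is incomplete at these depths, so the shares bound from above the cells that lacked the chains.

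Among GZMK-positive cells HLA-DRA and CD74 were highest in those with many GZMK UMIs. CD74 was higher in cells with few GZMB UMIs than in those with many. In cells with 1, with 2 or 3, and with 4 or more GZMK UMIs, HLA-DRA stood at 8.70 CPM (2.37 to 22.3), 41.1 CPM (24.4 to 65.0) and 126 CPM (106 to 148). CD74 stood at 163, 315 and 949 CPM over the same steps. HLA-DPA1 differed less, from 113 CPM (84.5 to 148) to 137 CPM and 181 CPM (157 to 208). The 3 steps held 111, 114 and 267 cells with like median depths of 3545, 3480 and 3534 UMIs. The minimum of 1 GZMK UMI thus set the group's members, and cells just inside it, at 8.70 CPM HLA-DRA, were closer to the 1.50 CPM of the quadruple-negative cells just outside it than to the cells with 4 or more.

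Over the corresponding steps of GZMB, without the monocyte-gene droplet, HLA-DRA stood at 81.5 CPM (55.8 to 115), 72.8 CPM (40.8 to 120) and 28.6 CPM (24.2 to 33.5). CD74 stood at 553, 743 and 165 CPM. HLA-DPA1 went the other way, at 38.2 CPM (21.4 to 63.0) in the 105 cells with 1 GZMB UMI, 146 CPM (98.3 to 208) in the 58 cells with 2 or 3, and 159 CPM (148 to 170) in the 1254 cells with 4 or more. CD74 was therefore lowest in the cells with many GZMB UMIs, and HLA-DPA1 was lowest in those with 1, while its other steps overlapped. Of the 32 HLA-DRA UMIs at 1 GZMB UMI, 15 lay in 1 cell. Without it the level was 44.2 CPM (25.8 to 70.8), whose interval overlaps that of the cells with 4 or more. Over the steps of FOXP3, CD74 stood at 264, 246 and 199 CPM in 190, 107 and 31 cells, with overlapping intervals, and HLA-DRA had 1, 1 and 0 UMIs. The MKI67 steps held 54, 25 and 7 cells, and HLA-DRA stood at 122, 59.3 and 127 CPM there with no order. Of the 35 UMIs of the first step 15 lay in 1 cell, and its level without that cell was 72.0 CPM. All 10 HLA-DRA UMIs of the last step lay in 1 cell. A UMI of the status gene itself was found in 3 of 115 B cells for GZMK, 3 for GZMB, 1 for MKI67 and 0 for FOXP3, so a single UMI may be background in some cells, which was not tested.

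**Figure D2:**
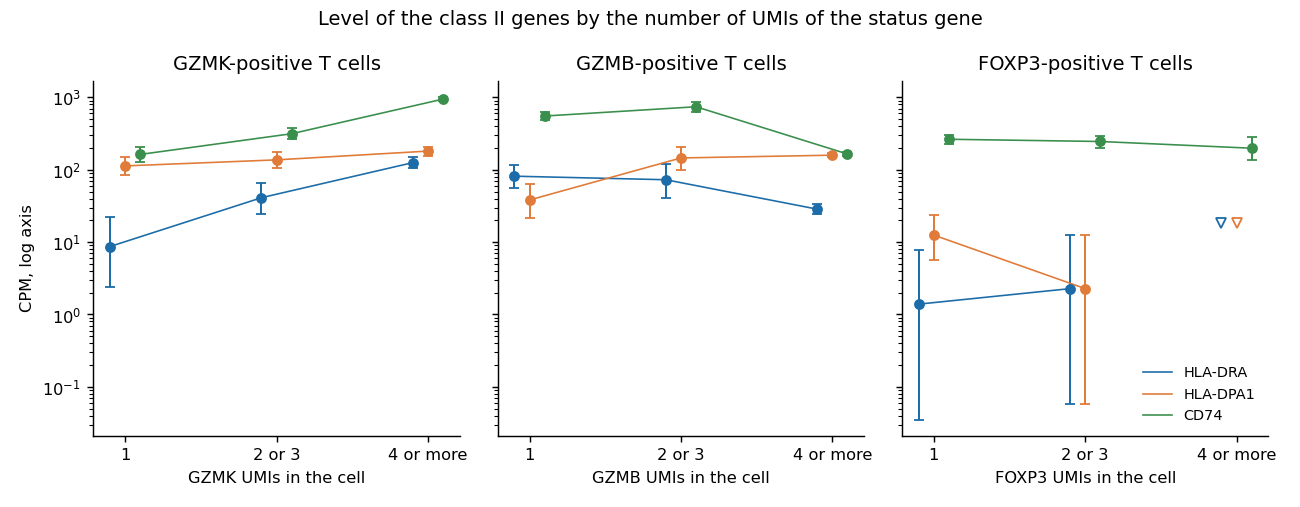
Level of HLA-DRA, HLA-DPA1 and CD74 in CPM on a log axis by the number of UMIs of the status gene in the cell (1, 2 or 3, 4 or more), without droplets carrying monocyte genes; bars are exact 95% counting intervals, lines join the points of a gene, and open triangles are floors of 3 counts. Among the GZMK steps HLA-DRA and CD74 were highest at 4 or more UMIs, at 126 and 949 CPM, while at 4 or more GZMB UMIs they stood at 28.6 and 165 CPM. The HLA-DRA point at 1 GZMB UMI would be 44.2 CPM without 1 cell.

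The exact combination of the 4 status genes divided the groups further. The 172 cells with GZMK alone stood at 91.6 CPM HLA-DRA (69.4 to 119), 101 CPM HLA-DPA1 (77.8 to 130) and 802 CPM CD74 (733 to 876). The 1051 cells with GZMB alone stood at 24.7 CPM HLA-DRA (20.2 to 30.0), 141 CPM HLA-DPA1 (130 to 153) and 118 CPM CD74 (108 to 129). These values include the GZMB-positive droplet with monocyte genes. It held 25 of the 103 HLA-DRA, 6 of the 588 HLA-DPA1 and 105 of the 494 CD74 UMIs, so the levels without it are lower. GZMK alone thus went with higher HLA-DRA and CD74, and GZMB alone with higher HLA-DPA1. The 301 cells with both granzymes and no MKI67 or FOXP3 lay between them for HLA-DRA, at 54.0 CPM (41.9 to 68.4), and for CD74, at 489 CPM (451 to 529). They were at 172 CPM (150 to 197) for HLA-DPA1.

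Cells with MKI67 alone held few UMIs of the alpha chains. The 25 cells with MKI67 alone held 1 HLA-DRA UMI, 1 HLA-DPA1 UMI and 91.5 CPM CD74 (52.3 to 149) at a median depth of 5111 UMIs. Of the 16 CD74 UMIs 13 lay in 1 cell, and the 24 others stood at 18.5 CPM (3.82 to 54.2). Among cells with GZMK or GZMB, the 56 MKI67-positive cells stood at 161 CPM HLA-DRA (121 to 209) and the 1538 MKI67-negative cells at 37.4 CPM (32.7 to 42.6). The log2 ratio between these was 2.10 (1.65 to 2.53) for HLA-DRA, 1.21 (1.001 to 1.42) for CD74 and 0.64 (0.28 to 0.98) for HLA-DPA1. Without the 2 cells with the most HLA-DRA, which held 25 of these 55 HLA-DRA and 98 of 212 CD74 UMIs, the level was 95.2 CPM (64.2 to 136) and the log2 ratios were 1.35 (0.75 to 1.90), 0.44 (0.15 to 0.71) and 0.44 (0.04 to 0.81). In both comparisons the MKI67-negative cells kept 1 droplet with monocyte genes, which held 25 of their 229 HLA-DRA and 105 of their 1636 CD74 UMIs. The 13 cells with GZMK, GZMB and MKI67 were the highest of the combinations of at least 10 cells, at 313 CPM HLA-DRA (213 to 444), 283 CPM HLA-DPA1 (188 to 409) and 1374 CPM CD74 (1152 to 1625). Of their 31 HLA-DRA UMIs, 15 lay in 1 cell and 10 in another. Without both, the level of the 11 others was 83.3 CPM HLA-DRA (30.6 to 181), 180 CPM HLA-DPA1 and 528 CPM CD74, so the first place rested on them. Median depth was 5163 UMIs in the MKI67-positive and 3529 in the MKI67-negative cells. Thinned to 2200 UMIs, HLA-DRA was found in 11 of 55 MKI67-positive cells (10.4 to 33.0%) and in 5.21% (4.13 to 6.47) of the MKI67-negative cells, and HLA-DPA1 in 40.0% (27.0 to 54.1) and 26.9% (24.6 to 29.2). CD74 was found in 30.9% (19.1 to 44.8) and 24.0% (21.8 to 26.2). At equal depth the intervals were apart for HLA-DRA and overlapped for HLA-DPA1 and CD74.

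**Figure D3:**
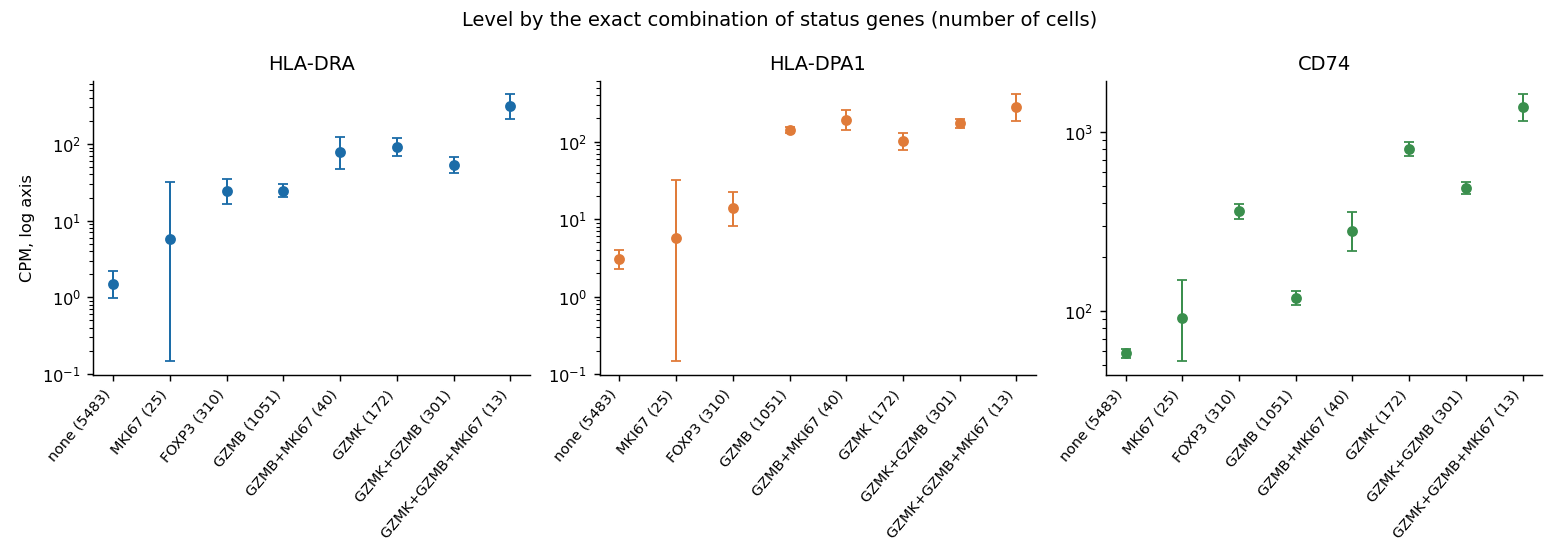
Level of HLA-DRA, HLA-DPA1 and CD74 in CPM on a log axis by the exact combination of GZMK, FOXP3, GZMB and MKI67 found in a cell, with the number of cells in brackets and exact 95% counting intervals; the FOXP3 and GZMB points include the droplets with monocyte genes that fell there. Cells with MKI67 alone had 1 HLA-DRA UMI, and cells with GZMK, GZMB and MKI67 stood at 313 CPM with, and at 83.3 CPM without, 2 of the 13 cells.

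CCR7, a homing receptor of naive and central memory T cells, was compared within the groups. GZMK-positive cells with CCR7 (162 cells) stood at 78.2 CPM HLA-DRA (59.1 to 102), and those without it (330 cells) at 81.8 CPM (67.0 to 98.9). HLA-DPA1 was higher without CCR7, at 177 CPM (155 to 201) against 119 CPM (94.8 to 147), and CD74 was lower, at 588 CPM (547 to 631) against 711 CPM (650 to 775). In quadruple-negative cells, CD74 stood at 56.2 CPM with CCR7 and 62.9 CPM without it, and the interval of their log2 ratio, -0.03 to 0.36, included 0. So did those of HLA-DRA (-0.11 to 2.32) and HLA-DPA1 (-0.24 to 1.47). In FOXP3-positive cells HLA-DPA1 and CD74 stood at 41.8 and 566 CPM without CCR7 and at 5.56 and 259 CPM with it. The monocyte-gene droplet held 13 of the 18 HLA-DPA1 and 147 of the 244 CD74 UMIs without CCR7, so no difference is read there.

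The CD4 and CD8 tags gave a second axis that the grouping had not used. A mixture of 2 components on each tag placed 5397 T cells in a CD4hiCD8lo, 1669 in a CD4hiCD8hi, 316 in a CD4loCD8hi and 35 in a CD4loCD8lo compartment. The low class ended at 146 CD4 and 504 CD8 tag UMIs and the high class began at 147 and 505, except for 1 cell and 3 cells with very few tag UMIs that the mixtures placed in the high class. Without the monocyte-gene droplets, HLA-DPA1 stood at 24.1 CPM (21.9 to 26.6) in CD4hiCD8lo, 63.5 CPM (57.9 to 69.5) in CD4hiCD8hi and 99.1 CPM (81.7 to 119) in CD4loCD8hi cells. CD74 followed with 96.6, 150 and 261 CPM, and HLA-DRA with 7.27 (6.05 to 8.66), 18.8 (15.9 to 22.2) and 15.6 CPM (9.27 to 24.7). The share of GZMB-positive cells over the same compartments was 10.9%, 36.8% and 64.9%, and that of GZMK-positive cells 4.06%, 11.3% and 25.6%.

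Within a granzyme group the order over compartments was lost or turned. Among GZMB-positive cells HLA-DPA1 stood at 151 CPM (135 to 169), 150 CPM (136 to 164) and 156 CPM (128 to 188) in CD4hiCD8lo, CD4hiCD8hi and CD4loCD8hi cells. Among GZMK-positive cells it stood at 157, 152 and 169 CPM. HLA-DRA of GZMK-positive cells was 82.3 CPM (63.6 to 105) in CD4hiCD8lo, 92.5 CPM (73.8 to 115) in CD4hiCD8hi and 27.1 CPM (11.7 to 53.3) in CD4loCD8hi cells. CD74 of the same cells was 696 CPM (639 to 756), 649 CPM (597 to 703) and 369 CPM (303 to 445). HLA-DRA and CD74 of GZMK-positive cells were thus lower in the CD4loCD8hi compartment, and HLA-DPA1 was level over the 3. Quadruple-negative cells differed only in CD74, which stood at 49.0 CPM (45.4 to 52.9) in CD4hiCD8lo, 66.4 CPM (58.5 to 75.0) in CD4hiCD8hi and 269 CPM (221 to 324) in the 105 CD4loCD8hi cells. HLA-DRA had 0 UMIs and HLA-DPA1 had 2 in those 105 cells.

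The class II genes were found together in single cells. After thinning to equal depth, CD74 was found in 67.8% (56.9 to 77.4) of the 87 GZMK- or GZMB-positive cells with a HLA-DRA UMI, and in 21.5% (19.4 to 23.7) of the 1445 without one. HLA-DPA1 was found in 46.0% (35.2 to 57.0) and 26.2% (24.0 to 28.6). Within GZMK-positive cells alone, CD74 was found in 44 of 49 cells with HLA-DRA (89.8%, 77.8 to 96.6) and in 38.9% (34.2 to 43.7) of those without.

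Without thinning, 134 GZMK- or GZMB-positive cells with a HLA-DRA UMI were compared with 1459 without one, at median depths of 3949.5 and 3526 UMIs. CD74 stood at 1341 CPM in the former and 153 CPM in the latter, a log2 ratio of 3.13. HLA-DPA1 stood at 311 and 128 CPM, a log2 ratio of 1.28 (1.05 to 1.51). Of the cell cycle list, MKI67 left aside, 4 of 7 genes were at least 2-fold higher. Over all 7496 genes with enough UMIs this share was 1.71%. The 4 genes were TOP2A, TYMS, RRM2 and BIRC5, found in only 7, 9, 5 and 6 of the 134 cells with HLA-DRA. No cell cycle gene was at least 2-fold lower, against 3.54% of all genes, so that count was near its background. In the GZMK and EOMES list CHI3L2, with 49 UMIs in the cells without HLA-DRA, reached the minimum only through the cells with it, so no count is read. The same held for CXCR5 of the follicular helper list. Of 11 activation genes 1 was higher, of 6 naive genes 1 was lower, and of 6 loading genes 1 was lower and CD74 was higher. Named after their values were seen, EOMES, a transcription factor of memory and cytotoxic T cells, stood at 127 CPM against 50.4 CPM. RRM2, a ribonucleotide reductase subunit made in S phase, stood at 81.8 CPM against 17.2 CPM. The status genes themselves differed too, with GZMK at 1145 CPM against 366 CPM and MKI67 at 51.9 CPM against 11.2 CPM. Without the 2 cells with the most HLA-DRA, 2 of 7 cell cycle genes were past 2-fold, with RRM2 at 47.6 CPM, and MKI67 stood at 27.9 CPM. The B cell genes CR2 and IGKC reached the minimum only through the cells with HLA-DRA, so no count is read for that list. IGKC stood at 23.6 CPM against 6.53 CPM, a log2 ratio of 1.85 (0.88 to 2.75) from 15 and 38 UMIs. Its part in the HLA-DRA level was not tested. Of 10 cytotoxic genes 0 were at least 2-fold higher and 1 was lower, the adhesion receptor ADGRG1 with 33.0 CPM against 70.3 CPM. GZMB was lower by less, at 2987 CPM against 3729 CPM. None of 14 tested genes of the class II transcription list and none of 12 class I genes differed by 2-fold. With 1.71% of all genes higher and 3.54% lower, these counts were near their background.

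B cell doublets were checked for first, because a B cell captured with a T cell would bring all of these genes. MS4A1 had 0 UMIs in GZMK-positive, FOXP3-positive and MKI67-positive cells and 1 in GZMB-positive cells. At the ratio of HLA-DRA to MS4A1 in B cells, the floor of 3 MS4A1 counts would bring 10.3 HLA-DRA UMIs, against the 162 found in GZMK-positive cells. CD79B stood at 1.49 CPM in GZMK-positive, 1.03 CPM in GZMB-positive, 7.28 CPM in MKI67-positive and 17.3 CPM in FOXP3-positive cells, the last from 23 UMIs in 20 cells, against 4.27 CPM in quadruple-negative cells. TNFRSF13C, a receptor for the B cell factor BAFF, stood at 3.76 CPM in FOXP3-positive and 0.222 CPM in quadruple-negative cells and had 0 UMIs in the other 3 groups. The part of these genes in the FOXP3-positive values was not tested. None of the 158 T cells with a HLA-DRA UMI held a UMI of MS4A1, whereas all 115 B cells did.

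Over 18 B cell genes without CD79A, the summed level was 40.3 CPM in GZMK-positive, 100 CPM in FOXP3-positive, 12.4 CPM in GZMB-positive, 81.9 CPM in MKI67-positive, 35.4 CPM in quadruple-negative T cells and 7964 CPM in B cells. Of these genes 11, 11, 9, 13 and 5 were at 0 in the T cell groups in that order, among them BLNK, BANK1 and PAX5 in the first 4. Most of the sum was carried by CR2, the complement receptor CD21, and by IGKC, an immunoglobulin light chain, which made up 32 and 36 of the 81 UMIs in GZMK-positive cells. IGKC stood at 17.9 CPM in GZMK-positive, 50.4 CPM in FOXP3-positive, 40.0 CPM in MKI67-positive and 3.60 CPM in GZMB-positive cells, against 5.27 CPM in quadruple-negative and 846 CPM in B cells, so it was higher in 3 of the 4 groups. In MKI67-positive cells 12 of the 22 IGKC UMIs lay in 1 cell, and the level without it was 19.0 CPM (9.09 to 34.9). CR2 was also among the leading genes of a T cell cluster. The whole list at the B cell ratio would bring 64.6 HLA-DRA UMIs to GZMK-positive and 57.4 to GZMB-positive cells, where 162 and 221 were found. It would bring 35.9 to MKI67-positive cells, where 56 were found (26.3 without the cell with 12 IGKC UMIs), and 106 to FOXP3-positive cells, where 31 were found. It would bring 509 to quadruple-negative cells, where 27 were found.

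The droplets that did carry B cell RNA looked different. Of 207 CD3E-positive droplets with at least 2 CD79A UMIs, the 42 with MS4A1 stood at 3380 CPM HLA-DRA (3203 to 3565), 987 CPM HLA-DPA1, 10964 CPM CD74 and 47.2 CPM CIITA. Their median depth was 9128.5 UMIs. The 165 without MS4A1 stood at 26.5 CPM HLA-DRA (16.4 to 40.6) and 215 CPM CD74, with 0 CIITA UMIs, at a median depth of 3618 UMIs. Of their 21 HLA-DRA UMIs 19 lay in 1 droplet with 74 UMIs of CD14 and LYZ, which also held 82 of their 170 CD74 UMIs. The 164 others stood at 2.57 CPM HLA-DRA (0.311 to 9.27) and 113 CPM CD74 (90.5 to 139). The proportion of HLA-DPA1 to HLA-DRA in the 207 droplets was 0.298 (0.266 to 0.333), at the value of B cells and away from that of granzyme-positive T cells. In 879 CD3E-positive cells with exactly 1 CD79A UMI, just outside the limit set for T cells, HLA-DRA stood at 17.2 CPM (13.0 to 22.2), against 13.2 CPM in the T cells just inside it and 11.1 CPM there without the monocyte-gene droplets. Those 879 cells held 6 MS4A1 UMIs, which at the B cell ratio would bring 20.5 of their 58 HLA-DRA UMIs, and 22 of the 58 lay in 1 cell.

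The doublet caller Scrublet set an automatic threshold that marked 0 of the 8830 cells, so it did not work here. The highest 6% of its scores held 9.35% of GZMK-positive, 10.3% of GZMB-positive, 4.65% of MKI67-positive, 3.65% of FOXP3-positive and 2.95% of quadruple-negative T cells. With those cells left out, the log2 ratios of HLA-DRA, HLA-DPA1 and CD74 kept their direction in every group. The same scores held only 8 of the 42 CD3E-positive droplets with MS4A1 and at least 2 CD79A UMIs. Leaving them out therefore could not decide on doublets.

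Monocyte and dendritic cell genes were counted in the same way. The monocyte list of 12 genes summed to 20.9 CPM in GZMK-positive, 116 CPM in FOXP3-positive, 75.2 CPM in GZMB-positive, 12.7 CPM in MKI67-positive and 15.6 CPM in quadruple-negative T cells. The FOXP3-positive and GZMB-positive sums include the droplets described above. Of the GZMB-positive group's 163 UMIs of CD14 and LYZ, 140 of LYZ and 14 of CD14 lay in 1 such droplet. Of the 57 in the FOXP3-positive group, 42 of LYZ and 13 of CD14 lay in the other. Of the 12 genes 7 were at 0 in GZMK-positive, 10 in MKI67-positive and 5 in quadruple-negative cells. S100A8, S100A9 and CSF1R were at 0 in GZMK-positive and MKI67-positive cells, while CD14 and CST3 had UMIs in both. LYZ, CD68 and VCAN had UMIs in GZMK-positive cells too. The 11 dendritic cell genes, with GZMB left out, summed to 2.49 CPM in GZMK-positive, 23.3 CPM in FOXP3-positive, 3.26 CPM in GZMB-positive, 16.4 CPM in MKI67-positive and 12.8 CPM in quadruple-negative cells. FLT3, CLEC9A and CLEC10A were at 0 in each granzyme group, and also in quadruple-negative and B cells, so they do not tell these groups apart. CD1C made up 28 of the 31 UMIs in FOXP3-positive cells, and quadruple-negative cells also held it, at 12.1 CPM.

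**Figure D4:**
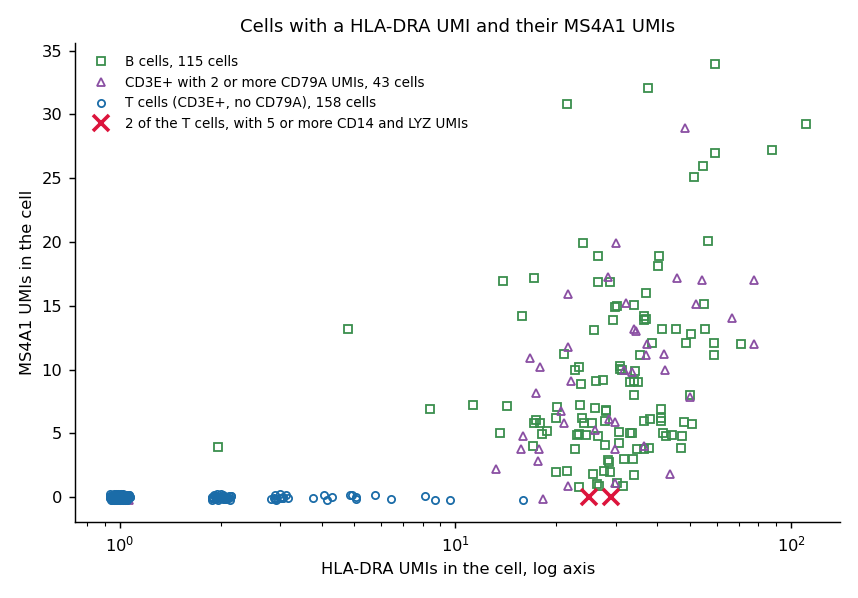
Each point is a cell with at least 1 HLA-DRA UMI, by its HLA-DRA UMIs (log axis) and its MS4A1 UMIs, with points shifted slightly so that equal values can be seen. All 158 T cells lie at 0 MS4A1 UMIs, the 115 B cells lie above 0, and crosses mark the T cells with monocyte genes.

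Single T cells carried few HLA-DRA UMIs. Of 492 GZMK-positive cells 42 held 1, 16 held 2, 11 held 3 or 4, and 6 held 5 or more. Of the 115 B cells 112 held 10 or more. Over all T cells 12 held 5 or more, of which 2 were the droplets with monocyte genes. The other 10 held between 5 and 15 at depths of 3869 to 18939 UMIs, together with 7 to 25 CD3E UMIs and 7 to 50 CD74 UMIs. Of these 10 cells 9 were positive for GZMK or GZMB, 5 were positive for MKI67, 0 held MS4A1, 3 held 2 to 6 UMIs of the B cell list, and 1 was among the highest Scrublet scores. Leaving out the droplets with monocyte genes, no T cell of a status group reached 18 HLA-DRA UMIs, the level that 105 of 115 B cells reached.

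The cells were also clustered without the class II chain, loading and member genes, which gave 17 clusters. Cluster 9, with MS4A1, CD79B, EGR1 and FCRLA among its leading genes, and cluster 16, led by LYZ, CFD, S100A8, CST3 and S100A9, were set aside. The T cells of cluster 7, led by GZMK, EOMES, PDCD1, SEMA4A and CXCR3, stood at 126 CPM HLA-DRA (104 to 151), 144 CPM HLA-DPA1 (121 to 171) and 1073 CPM CD74 (1007 to 1141) over 247 cells. The 36 T cells of cluster 14, led by the cell cycle genes H3C15, RRM2, TYMS, UBE2C and CCNA2, stood at 150 CPM HLA-DRA (109 to 202), 182 CPM HLA-DPA1 (136 to 238) and 549 CPM CD74 (466 to 642). Both clusters were high for all 3 genes, and their HLA-DRA and HLA-DPA1 intervals overlapped. Of the 43 HLA-DRA and 157 CD74 UMIs of cluster 14, 25 and 98 lay in 2 cells, without which it stood at 69.5 CPM HLA-DRA (41.2 to 110), 143 CPM HLA-DPA1 and 228 CPM CD74 (173 to 294).

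Other clusters held only part of the set. Cluster 4, led by SERPINA1, CX3CR1, CMA1, GZMB and OSR2, stood at 174 CPM HLA-DPA1 (159 to 189) over 834 cells, with 26.3 CPM HLA-DRA (20.9 to 32.7) and 108 CPM CD74 (96.3 to 120). Cluster 5, led by KLRD1, TRGC2, CCL5, PRF1 and GZMB, stood at 120 CPM HLA-DPA1 (104 to 137), 10.9 CPM HLA-DRA (6.57 to 17.0) and 147 CPM CD74 (130 to 166) over 370 cells. These clusters had the HLA-DPA1 level of cluster 7 or near it with far less HLA-DRA and CD74. Cluster 6, led by FOXP3, IL2RA, CLNK, CTLA4 and OTUD5, had 327 CPM CD74 (296 to 361) with 3 HLA-DRA UMIs and 0 HLA-DPA1 UMIs over 345 cells. Cluster 10, led by CTSW, TTC24, CST6, TMEM255B and PLAC8, had 273 CPM CD74 (227 to 325) with 0 HLA-DRA and 2 HLA-DPA1 UMIs over 112 cells. HLA-DPB1, the beta chain of the DP molecule, stood at 156 CPM (122 to 197) there and at 44.5 CPM (33.4 to 58.0) in cluster 6. In the 1767 T cells of cluster 0, led by DNTT, SFRP5, RCN3, SLC22A17 and APOD, the levels were 0.84 CPM HLA-DRA, 2.52 CPM HLA-DPA1 and 42.2 CPM CD74.

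**Figure D5:**
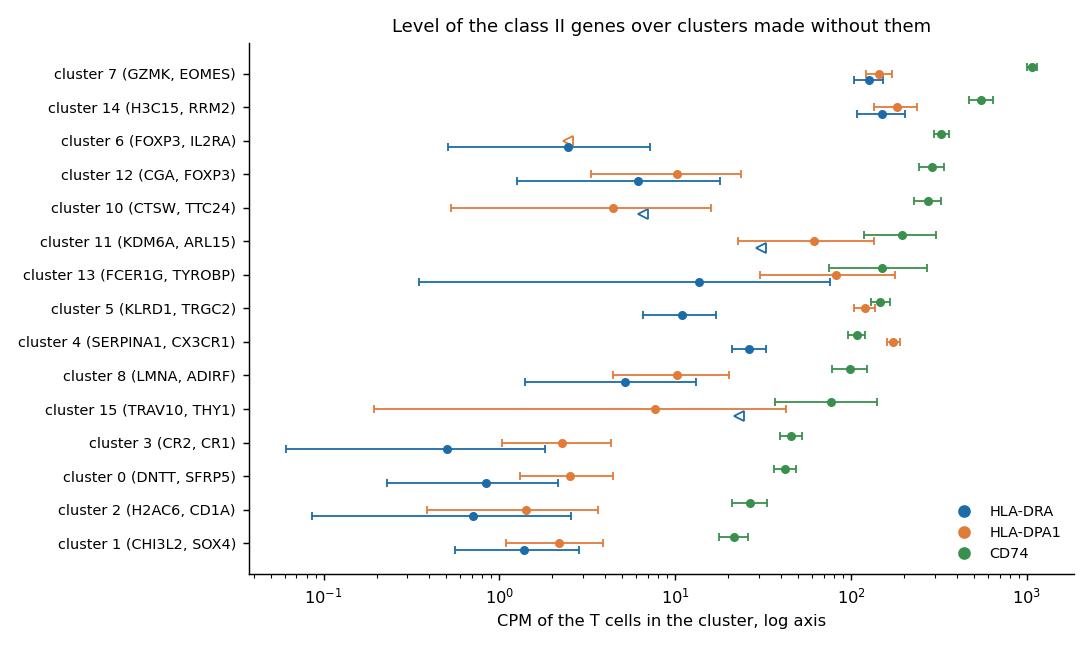
Level of HLA-DRA, HLA-DPA1 and CD74 in CPM on a log axis in the T cells of each cluster, ordered by CD74 and named by number with 2 leading genes; bars are exact 95% counting intervals and open triangles are floors of 3 counts. Clusters 7 and 14 were high for all 3 genes, cluster 14 with 25 of its 43 HLA-DRA UMIs in 2 cells, cluster 4 for HLA-DPA1, and clusters 6, 10 and 12 for CD74 alone of these 3.

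Cluster 3, with the B cell list gene CR2 among its leading genes, was left out of the comparison of patterns. Over the other 14 clusters of T cells, Pearson's r of log2(CPM + 5) was 0.78 for HLA-DRA and HLA-DPA1, 0.65 for HLA-DRA and CD74, and 0.52 for HLA-DPA1 and CD74. HLA-DPA1 and HLA-DPB1 gave 0.93. Outside the class II lists, the genes whose pattern was most like that of the summed HLA-DRA, HLA-DPA1 and CD74 were ANTKMT (r of 0.79), TAP2 (0.77), OTULINL, RER1, MT3, NAA50, TMEM156, AIM2, PPP3CC and SLF1 (0.73). That sum followed CD74 (0.97) more closely than HLA-DRA (0.74) or HLA-DPA1 (0.70). TAP2, which is a subunit of the peptide transporter of the class I pathway, ranged from 23.1 to 154 CPM over these clusters. These values describe clusters of 1 animal that differ in depth and size.

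The other class II genes were read against quadruple-negative cells in the same way, with at least 50 UMIs over both groups. HLA-DPB1 stood at 483 CPM in GZMK-positive, 403 CPM in GZMB-positive, 233 CPM in MKI67-positive, 66.2 CPM in FOXP3-positive and 52.4 CPM in quadruple-negative T cells, and at 3291 CPM in B cells. It was higher in granzyme-positive cells than in the other T cells, as HLA-DPA1 was, but over a higher level in quadruple-negative cells. Its log2 ratio to quadruple-negative cells was 3.20 (3.07 to 3.33) in GZMK-positive cells, where 8.67% of all genes were at least 2-fold higher and 7.57% lower. It was 2.94 (2.83 to 3.05) in GZMB-positive cells (11.0% of all genes higher, 7.68% lower), 2.15 (1.87 to 2.42) in MKI67-positive cells (15.3% higher, 9.80% lower) and 0.34 (0.01 to 0.65) in FOXP3-positive cells (2.52% higher, 4.92% lower). Without the monocyte-gene droplet the FOXP3-positive level was 52.3 CPM, that of quadruple-negative cells. HLA-DRA and HLA-DPA1 were chosen for their differences among these cells and are not counted. In FOXP3-positive cells without the monocyte-gene droplet, HLA-DPA1 had 10 UMIs and a log2 ratio of 1.31. Of these, 4 lay in the 309 cells with FOXP3 alone, at 3.29 CPM (0.898 to 8.44) against 3.05 CPM in quadruple-negative cells, and 6 in the 19 cells with another status gene. With at least 2 FOXP3 UMIs the log2 ratio was -0.87, from 1 HLA-DPA1 UMI in 138 cells. The chain gene HLA-DQA1 had 1 UMI in all T cells and 10 in B cells. Other chain genes of the list, such as the DR and DQ beta chains, were not analysed here.

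The peptide loading genes differed in both directions in T cells. In GZMK-positive cells CD74, HLA-DMA and IFI30 were at least 2-fold higher, and CTSL, CTSH and LGMN, which encode lysosomal proteases, were at least 2-fold lower. CD74 was one of the 4 genes chosen for this comparison, and HLA-DMA, with under 50 UMIs in quadruple-negative cells, reached the minimum only with the UMIs of the status group, so no count of higher genes is read against the background. HLA-DMA, a chain of the exchange factor that takes the CD74 fragment out of the groove, stood at 7.46 CPM (4.17 to 12.3) against 2.55 CPM in quadruple-negative cells and 908 CPM in B cells. IFI30, a lysosomal thiol reductase, stood at 18.4 CPM in GZMK-positive, 22.5 CPM in GZMB-positive, 32.7 CPM in MKI67-positive and 15.8 CPM in FOXP3-positive cells, against 2.94 CPM in quadruple-negative cells. Without the monocyte-gene droplets IFI30 stood at 18.9 CPM in GZMB-positive and at 6.06 CPM, from 8 UMIs, in FOXP3-positive cells. It remained at least 2-fold higher in all 4 groups, as CD74 did. HLA-DMA did not, at 3.96 CPM in GZMB-positive and 3.79 CPM in FOXP3-positive cells without those droplets.

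The lower loading genes were proteases of endosomes. The cathepsin CTSH stood at 2.98 CPM in GZMK-positive, 6.69 CPM in GZMB-positive and 28.2 CPM in quadruple-negative T cells, and at 239 CPM in B cells. The endopeptidase LGMN stood at 1.99, 2.06 and 9.10 CPM in the same T cell groups. The cathepsin CTSL stood at 6.46, 6.35 and 22.9 CPM there, and at 49.6 CPM in FOXP3-positive cells, where it was higher. The cathepsin CTSS, which cleaves the invariant chain, was not 2-fold different, at 113 CPM in GZMK-positive and 73.7 CPM in quadruple-negative cells. B cells differed from T cells in 9 loading genes that were higher and 2 that were lower, of 14, where 10.9% of all 9892 genes were higher and 13.0% lower. Some of the 9, such as HLA-DMB and HLA-DOB, reached the minimum of 50 UMIs only through the B cells, so the count is no support. Among the 9, HLA-DMB stood at 586 CPM and HLA-DOB at 249 CPM, named although they had under 50 UMIs in T cells, where they stood at 0.424 and 0.231 CPM.

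Of the genes that control class II transcription, few differed. IRF4 reached the minimum only with the UMIs of the status group and is given by its values alone. Of the 13 others, 1 was at least 2-fold higher in GZMK-positive cells, PRDM1, and 1 was lower, IFNGR2, where 8.67% of all genes were higher and 7.57% lower, so the counts were near their background. The same 2 genes were past 2-fold in that direction in GZMB-positive and MKI67-positive cells, where 11.0% and 15.3% of all genes were higher, and 7.68% and 9.80% lower. FOXP3-positive cells had 1 higher and 0 lower, against 2.52% and 4.92%. The median log2 ratio of the list, with IRF4, was 0.14 in GZMK-positive and 0.15 in GZMB-positive cells, against 0.13 and 0.15 for all genes. PRDM1, a repressor of CIITA in plasma cells, stood at 49.2 CPM in GZMK-positive, 62.1 CPM in GZMB-positive, 40.0 CPM in MKI67-positive and 12.8 CPM in FOXP3-positive cells, against 3.94 CPM in quadruple-negative cells. IRF4, a factor induced by T cell receptor signals, stood at 13.4, 8.75, 20.01 and 21.1 CPM in those groups against 2.27 CPM. IFNGR2, a chain of the interferon gamma receptor, stood at 11.9 CPM in GZMK-positive and 94.5 CPM in quadruple-negative cells. RFX5, a subunit of the factor that binds the class II promoters with CIITA, stood at 24.9 CPM in GZMK-positive and 16.6 CPM in quadruple-negative T cells, and at 71.7 CPM in B cells.

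Genes of the class I pathway were read against quadruple-negative cells too. In GZMK-positive cells 3 of 12 were at least 2-fold higher, in GZMB-positive cells 2, in MKI67-positive cells 4 and in FOXP3-positive cells 0, and none was 2-fold lower in any of these. Over all genes the shares were 8.67%, 11.0%, 15.3% and 2.52% higher, and 7.57%, 7.68%, 9.80% and 4.92% lower. The GZMB-positive and FOXP3-positive counts of higher genes, and the counts of none lower, were thus near their background. TAP2 stood at 107 CPM in GZMK-positive, 108 CPM in GZMB-positive, 126 CPM in MKI67-positive, 57.9 CPM in FOXP3-positive and 37.4 CPM in quadruple-negative cells. PSMB9, a subunit of the immunoproteasome, stood at 602, 529, 622, 240 and 223 CPM in that order. The median log2 ratio of the list was 0.68 in GZMK-positive and 0.12 in FOXP3-positive cells, against 0.13 and -0.04 for all genes.

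Activation genes differed in both directions in the granzyme groups. IFNG in both groups, and TNF in GZMB-positive cells, reached the minimum only through the status group and are left out of the counts. In GZMK-positive cells 4 of 13 were at least 2-fold higher and 3 lower, and in GZMB-positive cells 4 of 13 were higher and 5 lower, where 8.67% and 7.57% of all genes, and 11.0% and 7.68%, were. In FOXP3-positive cells 8 of 13 were higher and 0 lower, and in MKI67-positive cells 6 of 13 were higher and 0 lower. Over all genes 2.52% and 15.3% were higher, and 4.92% and 9.80% lower, so the counts of 0 lower were near their background. Without the monocyte-gene droplet the 8 in FOXP3-positive cells were IL2RA, ICOS, TNFRSF4, TNFRSF18, CTLA4, TIGIT, LAG3 and FAS. IL2RA and CTLA4 are also markers of regulatory T cells, so this count is not read as activation. TIGIT, an inhibitory receptor, was higher in all 4, at 143 CPM in GZMK-positive, 112 CPM in GZMB-positive, 151 CPM in MKI67-positive and 165 CPM in FOXP3-positive cells against 17.5 CPM. CD38, an ectoenzyme used with HLA-DR as an activation marker, was lower in GZMK-positive cells, at 52.7 CPM against 131 CPM, and in GZMB-positive cells, at 38.1 CPM. IL2RA, a cytokine receptor chain that regulatory T cells carry, stood at 1.49 CPM in GZMK-positive, 85.0 CPM in FOXP3-positive and 5.60 CPM in quadruple-negative cells. IFNG, the cytokine that induces CIITA in many cell types, stood at 29.8 CPM in GZMK-positive and 37.2 CPM in GZMB-positive cells against 0.666 CPM.

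Receptors that bind class II molecules were measured beside them. LAG3, an inhibitory receptor for class II, stood at 19.9 CPM in GZMK-positive, 13.6 CPM in GZMB-positive, 23.6 CPM in MKI67-positive and 10.5 CPM in FOXP3-positive cells, against 3.83 CPM in quadruple-negative cells. CD4 RNA ranged from 105 to 124 CPM in these groups against 101 CPM. Of the costimulatory ligands, TNFSF4, which binds OX40, stood at 30.3 CPM in GZMK-positive and 35.5 CPM in GZMB-positive cells against 9.49 CPM in quadruple-negative cells. CD274, which encodes the ligand PD-L1, stood at 4.97 and 6.01 CPM against 1.33 CPM, from 10, 35 and 24 UMIs. With quadruple-negative cells it was under the minimum in GZMK-positive cells and passed it in GZMB-positive cells only through the status group, as CD80 did in both. CD80, a ligand of CD28, stood at 18.9 CPM in GZMK-positive and 23.0 CPM in GZMB-positive cells against 2.16 CPM in quadruple-negative and 11.7 CPM in B cells. CD40, by contrast, had 0 UMIs in each of the 4 status groups and stood at 257 CPM in B cells.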

How the data were processed

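Droplet-based single-cell libraries (gene and CD4/CD8 tag) of 1 animal were analysed. The authors deposited raw UMI counts per gene and cell. Per the submitters' processing notes, Cell Ranger 3.1.0, STAR 2.5.1b and Seurat 3.1.3 were used on the Macaca_fascicularis_5.0 build. The study's limits (200 to 4000 genes, at most 20% UMIs of 13 mitochondrial genes) left 8830 of 8953 barcodes. The study states a lower cell number after the same limits, and the reason for the difference was not found. UMIs were summed per group. Levels carry exact Poisson intervals, shares Clopper-Pearson intervals, and ratios the interval of the binomial split of the counts. A group at 0 was set to 3 counts over the group. No test was possible with 1 animal. Counts of genes past 2-fold cover those reaching 50 UMIs when the compared groups are summed. Clusters came from Seurat 5.3.0 in R 4.3.3 (2000 variable genes, 20 components, resolution 0.8), and likeness used genes with at least 200 UMIs. Other steps used Python 3.11.15, numpy 2.4.6, scipy 1.17.1, scikit-learn 1.9.0, scanpy 1.11.5 with Scrublet, and matplotlib 3.10.9. Scripts were tested on simulated data.

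The members and lists were chosen with earlier results of these data known. Named genes were the 4 members, class II genes with at least 50 UMIs in T cells, genes of the activation, costimulatory, class I and other-cell lists past 2-fold or with the most UMIs, the group-setting genes, the 10 most alike genes and the 5 leading genes of each cluster described. Of the listed genes 32 were not analysed here. Alternatives changed the cell limits, the status minimum, the T and B cell rules, doublet removal, averaging and depth. Leaving out droplets with monocyte genes, leaving out the 2 other T cells with at least 10 HLA-DRA UMIs and allowing 1 CD79A UMI were chosen after the data were seen. Class II genes of macaques have near-identical copies, and reads shared by copies may have been left out or split in counting.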

Additional observations from a re-analysis of the deposited data

How the results depend on the processing

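Over 212 alternative values, 172 moved by less than their counting interval, 39 moved by more and 1 reversed. HLA-DRA, HLA-DPA1 and CD74 stayed above quadruple-negative cells in 39 of 39 values for GZMK-positive, 39 of 39 for GZMB-positive, 39 of 39 for MKI67-positive and 38 of 39 for FOXP3-positive cells, and in B cells above T cells in 24 of 24. The genes were chosen for their differences among these cells, and the alternatives reused the same cells, so these counts are no support. The values for HLA-DRA and HLA-DPA1 with MKI67 alone, and for both with at least 2 FOXP3 UMIs, rest on 1 UMI each. HLA-DRA in FOXP3-positive cells without the monocyte-gene droplet rests on 2. With MKI67 alone 13 of 16 CD74 UMIs lay in 1 cell. The 24 other cells stood at 18.5 CPM CD74, against 58.0 CPM in quadruple-negative cells. The direction of these values is not firm. With FOXP3 alone and without the monocyte-gene droplet, HLA-DRA stood at 0.824 CPM, below the 1.50 CPM of quadruple-negative cells. All values below are log2 ratios unless CPM is named, and the cause of each shift was not tested.

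In FOXP3-positive cells HLA-DRA (3.96 as reported) was 0.15 with at least 2 FOXP3 UMIs, 0.75 without any B cell gene UMI, 2.95 as a mean over cells, 3.13 after thinning and 0.017 without droplets with monocyte genes. HLA-DPA1 reversed to -0.87 with at least 2 FOXP3 UMIs, and was 1.57 without any B cell gene UMI and 1.31 without those droplets. CD74 (2.63) was 2.01, 2.30 and 2.11 under the same 3 settings. CIITA (0.752 CPM, 1 UMI) was 0.0 CPM under these 3 settings and after thinning.

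For cells positive for 1 status gene alone, GZMK gave 5.05 for HLA-DPA1, 3.79 for CD74 and 0.0 CPM for CIITA, GZMB gave 4.04 for HLA-DRA and 1.03 for CD74, and MKI67 gave 1.93, 0.91 and 0.66 for HLA-DRA, HLA-DPA1 and CD74. The GZMB values there include the droplet with monocyte genes. With at least 2 UMIs of the status gene, CD74 was 3.73 for GZMK, 1.83 for GZMB and 2.57 for MKI67. CD74 was also 3.61 for GZMK with T cells taken by 4 receptor genes, and 2.14 for GZMB without the highest 6% of Scrublet scores. Without any B cell gene UMI, MKI67 gave 6.16 for HLA-DPA1 and 3.42 for CD74, and CD74 there was 2.61 as a mean over cells and 2.48 after thinning. Without the 2 T cells with at least 10 HLA-DRA UMIs and no monocyte genes, MKI67 gave 5.31 for HLA-DRA and 2.19 for CD74. B cells against T cells gave 9.44, 5.82 and 7.73 for HLA-DRA, HLA-DPA1 and CD74 as means over cells, 9.16 for HLA-DRA and 7.52 for CD74 without droplets with monocyte genes, and 7.53 for CD74 in B cells without CD3D, CD3G and TRAC.

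No paired analysis was possible because the cells came from 1 animal; for the same reason no replicate was left out. Intervals cover counting error only and say nothing of other animals. Depth limits CIITA most, with 8 UMIs in all T cells. CIITA ratios within T cells were replaced by CPM, since quadruple-negative cells had 0 UMIs. Free RNA and doublets of cells other than B cells were checked only by marker counts.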
